A study of Mus musculus with 4 samples.

Results

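Among untreated kidney cells that met a principal cell rule, those with transcripts of Clu, the gene for the secreted chaperone clusterin, were set against those with no Clu transcript. The cells came from the 1 untreated library of a series of 4 single-cell libraries from BAC-CluGFP mice, which carry green fluorescent protein (GFP) under the regulatory sequences of Clu. The other 3 come from mice killed at day 2, 7 or 30 following ischemia-reperfusion injury (IRI) with 35 min of ischemia, and all 4 hold kidney cells released with collagenase and dispase and sorted for GFP. How many mice went into a library is not stated, one cell type label of the untreated library names the injury although its title and treatment say untreated, and the matrices hold 0 rows for GFP. Because the sort took GFP-positive cells, a cell counted here as Clu-negative is one with no Clu transcript read, not one without the reporter.

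A cell was kept with at least 500 unique molecular identifiers (UMIs, each standing for 1 captured transcript), at least 300 genes and at most 50% mitochondrially encoded UMIs. It passed the principal cell rule with, per 10000 UMIs, at least 5 of Aqp2, under 10 of Calb1 and under 5 of Slc12a1. Of 6546 kept untreated cells, 316 passed (4.83%, exact 95% binomial interval 4.32 to 5.37%). Of these, 60 were Clu-positive, with at least 5 Clu UMIs per 10000 (19.0%, 14.8 to 23.8%), and 207 were Clu-negative, with 0 Clu UMIs (65.5%, 60.0 to 70.7%). The 49 cells in between belong to neither group, so the compared cells are 267 of 24410 kept in the series. Clu chose the groups, so its values are a description: the lowest, median and highest Clu-positive cell had 5.24, 15.2 and 222 Clu UMIs per 10000. The members nearest the limit had 5.24 and 5.46, and the nearest cells outside it had 4.37 and 4.28.

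Principal cells are the sodium- and water-reabsorbing cells of the collecting duct and the late connecting tubule. They take up sodium through the epithelial channel ENaC under the control of aldosterone, and water through aquaporins under the control of vasopressin. The connecting tubule lies just upstream, and its cells add active calcium reabsorption, with entry through Trpv5, buffering by the calbindins and exit through the exchanger Slc8a1. Clusterin binds misfolded proteins outside cells and is known for its induction in injured tubules.

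The 2 groups differed in depth. The Clu-positive cells held 503157 UMIs in all, with a median of 6501 UMIs and 2482.5 genes per cell, against 1400205 UMIs, a median of 3813 UMIs and 1549 genes in the Clu-negative cells. The mitochondrial share had a median of 13.99% in Clu-positive and 17.5% in Clu-negative cells. In the summed counts 1 UMI is worth 1.99 CPM, counts scaled to a total of 1000000, in Clu-positive and 0.714 CPM in Clu-negative cells, and a count of 0 allows up to 5.96 and 2.14 CPM. All cells come from 1 library, so there is no replicate and no test. Intervals are exact 95% intervals that cover counting error only, and "higher" or "lower" is used for a gene with at least 20 CPM in either group, at least 20 UMIs in both together, a difference of at least 2-fold and an interval of the ratio that excludes 1.

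Of 6614 genes measured, 257 (3.89%) were higher and 461 (6.97%) lower in Clu-positive cells. Without Clu, Aqp2, Calb1 and Slc12a1, which the rule used, these were 255 and 460. The median log2 difference over measured genes was 0.04, on the scale of CPM plus 10. These shares hold for the cells as defined. Further list counts are given below for thinned cells or for cells above a marker limit. The share of all genes called in those settings is not given, so such counts are description only.

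Connecting tubule genes stood out among the higher ones. The list of distal convoluted and connecting tubule markers has 9 genes besides Calb1, of which 7 were measured: 5 were higher and 0 lower in Clu-positive cells, against 3.89% of all genes higher. Their median log2 difference was 2.74. The 9 genes summed to 31801 CPM in Clu-positive and 2562 CPM in Clu-negative cells. S100g, Klk1, Slc8a1, Trpv5 and Kl were the 5. S100g (ENSMUSG00000040808, chrX:162961992-162964599 in mm10, minus strand) encodes calbindin-D9k, a cytosolic calcium buffer. Klk1 (ENSMUSG00000063903, chr7:44225360-44229618, plus strand) encodes tissue kallikrein, a serine protease secreted by connecting tubule cells. Clu itself (ENSMUSG00000022037) lies at chr14:65968483-65981547 on the plus strand.

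The 250 bases before the start of the 2 genes with the highest summed level on that list are shown because the summed level of both was far higher in the Clu-positive group. They are from RefSeq (GRCm38.p6), 5′ to 3′ on the gene's strand, at chrX:162964600-162964849 for S100g and chr7:44225110-44225359 for Klk1. Capitals mark AGGTCA, a half-site bound by many nuclear receptors, or its reverse complement.
S100g: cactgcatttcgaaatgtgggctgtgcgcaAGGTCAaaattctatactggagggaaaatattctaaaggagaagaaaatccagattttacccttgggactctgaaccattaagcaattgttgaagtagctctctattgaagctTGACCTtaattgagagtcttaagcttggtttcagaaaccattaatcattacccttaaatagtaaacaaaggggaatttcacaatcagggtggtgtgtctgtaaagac
Klk1: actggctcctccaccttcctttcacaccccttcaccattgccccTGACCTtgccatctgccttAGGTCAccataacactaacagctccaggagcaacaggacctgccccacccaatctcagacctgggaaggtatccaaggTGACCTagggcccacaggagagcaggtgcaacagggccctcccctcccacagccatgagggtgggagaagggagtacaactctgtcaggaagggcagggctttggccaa
The S100g window holds 2 matches and the Klk1 window 3. Of 32851 promoter windows of this length, 14.02% hold at least 1 match, 1.36% at least 2 and 0.131% at least 3. A looser pair, 2 copies of GNTCA with 4 bases between them on either strand, matched 0 times in both windows and is held by 0.548% of all windows. These letters were chosen after the sequences were seen, and a match is not a known binding site. No sequence is shown for Clu.

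S100g per cell had a lowest, median and highest value of 0, 100 and 495 UMIs per 10000 in Clu-positive cells, against 0, 3.50 and 284 in Clu-negative cells. The groups overlap at both ends, but the median Clu-positive cell lies above all Clu-negative cells except 1. The summed level was 13286 CPM in Clu-positive and 554 CPM in Clu-negative cells, a ratio of 24.0 (22.3 to 25.9). The summed level in Clu-negative cells was no higher than in cells that should lack the gene, since it was 694 CPM in 4252 proximal cells chosen by Slc34a1 and 699 CPM in 151 cells chosen by endothelial markers. Those 2 sums include S100g-rich cells: 66 Slc34a1 cells had at least 100 UMIs per 10000, and 1 endothelial-marker cell held 32.4% of its set's S100g UMIs. The median Slc34a1 cell had 3.21 and the median endothelial-marker cell 1.68 UMIs per 10000. In cells thinned to 2000 UMIs, which left out 0 of these cells, S100g was read in 83.3% of Clu-positive cells, 52.2% of Clu-negative cells and 52.5% of the Slc34a1 cells (96.7, 82.1 and 79.9% unthinned, at median depths of 6501, 3813 and 4082 UMIs). For Clu-negative cells this is the share of the Slc34a1 cells, while 37.1% of thinned endothelial-marker cells had a UMI.

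S100g split the Clu-positive cells themselves. At least 100 S100g UMIs per 10000 were found in 30 of 60 Clu-positive and 1 of 207 Clu-negative cells, and at least 50 in 38 and 4. Under 10 were found in 15 Clu-positive and 167 Clu-negative cells. The Clu-positive cells thus ranged from cells as rich in S100g as the connecting tubule to cells at the background level. The 15 with little S100g had 2007 CPM of Clu and 5754 CPM of Aqp2, whereas the 38 with at least 50 had 2553 CPM of Clu and 2185 CPM of Aqp2.

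Klk1 was carried by a minority of cells. Its lowest, median and highest value was 0, 8.07 and 1153 UMIs per 10000 in Clu-positive cells and 0, 6.95 and 722 in Clu-negative cells, so the medians were close and the difference lay in the upper tail. Of all Klk1 UMIs, 15.7% of those in Clu-positive and 22.2% of those in Clu-negative cells came from 1 cell. The sums were 17160 CPM in Clu-positive and 1608 CPM in Clu-negative cells (ratio 10.7, 10.2 to 11.2), with 2122 CPM in the Slc34a1 cells. Klk1 has close relatives in the Klk1b family, and the labels do not say how reads shared between them were counted.

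The calcium exit and entry routes were higher too. Slc8a1 (chr17:81373105-81738377, minus strand), the sodium-calcium exchanger of the basolateral membrane, had a median of 1.76 and a highest value of 16.99 UMIs per 10000 in Clu-positive cells, against a median of 0 and a highest value of 20.5 in Clu-negative cells. It stood at 274 and 27.9 CPM in the sums (ratio 9.85, 6.86 to 14.4). Thinned to 2000 UMIs, 41.7% of Clu-positive cells, 5.31% of Clu-negative cells and 4.30% of the Slc34a1 cells had a UMI. Trpv5 (chr6:41652173-41680769, minus strand), the apical calcium channel, was at 109 CPM in Clu-positive and 7.86 CPM in Clu-negative cells, from 55 and 11 UMIs (ratio 13.9, 7.20 to 29.5). It was read in 27 of 60 Clu-positive and 11 of 207 Clu-negative cells, and thinned cells held too few UMIs of it to be measured.

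Kl, which encodes the FGF23 co-receptor klotho, was at 833 CPM in Clu-positive and 226 CPM in Clu-negative cells (3.69, 3.18 to 4.28). Calb1, which the rule held under 10 per 10000, was read in 52 of 60 Clu-positive and 116 of 207 Clu-negative cells and stood at 584 and 251 CPM. Slc12a3 and Pvalb, markers of the distal convoluted tubule, did not differ by the rule. The sodium-chloride cotransporter Slc12a3 was at 15.9 CPM in Clu-positive and 12.1 CPM in Clu-negative cells, too low to be measured, and Pvalb was at 25.8 and 19.3 CPM, a ratio of 1.34 (0.635 to 2.69).

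**Figure D1:**
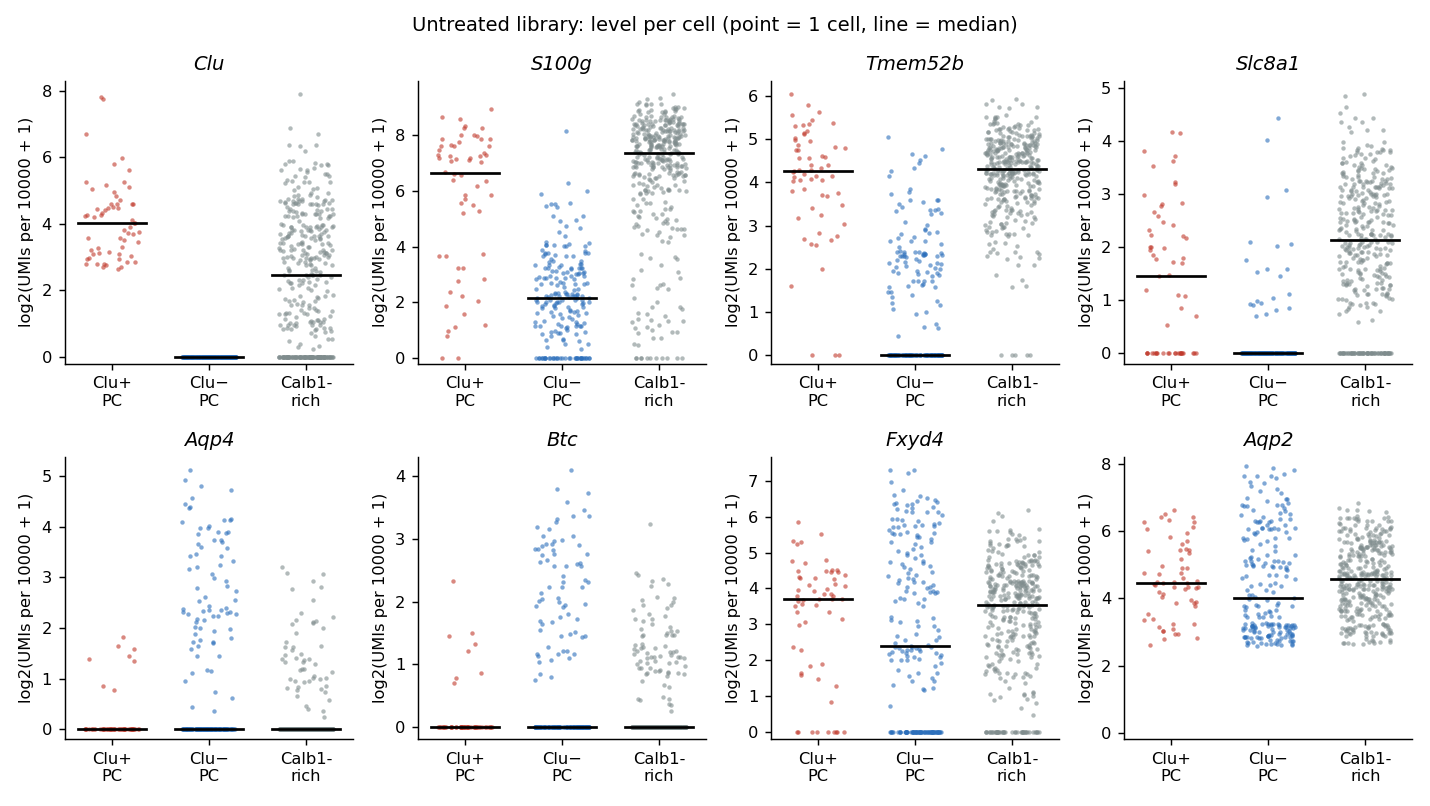
UMIs per 10000 in each untreated cell, as log2(value + 1) on the vertical axes, for 8 genes in 60 Clu-positive principal cells, 207 Clu-negative principal cells and 378 cells excluded from both because Calb1 was at least 10 per 10000. Each point is 1 cell and each line a median: S100g and Tmem52b are high in most Clu-positive and Calb1-rich cells, while Aqp4 and Btc are read in a larger share of Clu-negative than of Clu-positive cells.

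Tmem52b, which is on none of the lists, was also higher in Clu-positive cells. It had a lowest, median and highest value of 0, 18.1 and 65.2 UMIs per 10000 in Clu-positive cells, against 0, 0 and 32.3 in Clu-negative cells, and summed to 1942 and 263 CPM (7.39, 6.55 to 8.35). A UMI of it was left after thinning in 90% of Clu-positive cells, 32.9% of Clu-negative cells and 19.3% of the Slc34a1 cells. Before thinning 57 of 60 Clu-positive and 100 of 207 Clu-negative cells had a UMI.

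Wnk1 and Wnk4, kinases that set salt transport in the distal nephron, were 3.19-fold (670 and 210 CPM) and 3.77-fold (167 and 44.3 CPM) higher in Clu-positive than in Clu-negative cells. Vdr, the vitamin D receptor, was 3.27-fold higher (199 and 60.7 CPM) and Cav1, caveolin-1, 3.54-fold higher (278 and 78.6 CPM). Kl, Wnk4, Vdr, Cav1, Slc12a3 and Pvalb were added to the genes named here after their values were seen. Atp4a, a proton pump subunit known from the stomach, had 72 UMIs in Clu-positive and 35 in Clu-negative cells (5.72-fold higher), and Slc2a9, a urate transporter, at 67.6 and 7.14 CPM.

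Of 24 measured collecting duct transcription factors, 5 were higher in Clu-positive cells and 3 lower. The homeobox genes Hoxd10 (77.5 and 6.43 CPM, 39 and 9 UMIs), Hoxd9 (256 and 104 CPM), Hoxd8 (463 and 202 CPM) and Emx1 (103 and 18.6 CPM) and the AP-2 factor Tfap2b (215 and 105 CPM) were higher. The ETS factors Elf5 (9.94 and 52.1 CPM) and Elf3 (47.7 and 155 CPM) and the homeobox gene Hoxb9 (73.5 and 151 CPM) were lower. Hoxa9, which is not on that list, was 5.21-fold higher (115 and 22.1 CPM). The median log2 difference of the list was 0.00. With each cell thinned to 2000 UMIs, 4 of 19 measured were higher and 0 lower, with a median of 0.49. The share called over all genes measured in thinned cells is not given beside this. Gata3, a factor of the distal nephron and collecting duct, was not among the differing genes (165 CPM in Clu-positive and 186 CPM in Clu-negative cells), although equal weight per cell turned its ratio of 0.885 into 2.10.

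Some genes with few UMIs were read in many more Clu-positive than Clu-negative cells. Greb1 had 23 UMIs in 18 Clu-positive cells and 2 in Clu-negative cells, which is 45.7 and 1.43 CPM (32.0, 7.91 to 280). Cd8a had 22 UMIs in 10 Clu-positive cells and 0 in Clu-negative cells, at least 20.4-fold higher against a floor of 3 UMIs over the Clu-negative cells. Cd8a is best known from T cells, and Cd3e, a T cell receptor subunit, was at 0 in both groups. In cells with more Calb1, described below, Cd8a was at 29.4 CPM.

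Aqp4, Btc and Id1 were among the genes lower in Clu-positive cells. Aqp4 (ENSMUSG00000024411), the basolateral water channel of principal cells, had a highest value of 2.54 UMIs per 10000 in Clu-positive cells, against 33.8 in Clu-negative cells, with a median of 0 in both. It was read in 8 of 60 Clu-positive and 79 of 207 Clu-negative cells, and after thinning in 1.67 and 29.0%, beside 1.18% of the Slc34a1 cells. Its summed level was 27.8 CPM in Clu-positive and 528 CPM in Clu-negative cells (ratio 0.0527, 0.0287 to 0.0890). The range of the Clu-positive cells lies wholly inside the lowest part of that of the Clu-negative cells.

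Btc (chr5:91357261-91402994, minus strand), which encodes the EGF receptor ligand betacellulin, was at 23.8 CPM in Clu-positive and 262 CPM in Clu-negative cells (0.0910, 0.0466 to 0.161). Id1 (chr2:152736251-152737410, plus strand), an inhibitor of basic helix-loop-helix factors induced by BMP signals, was at 11.9 CPM from 6 UMIs in Clu-positive and 343 CPM in Clu-negative cells (0.0348, 0.0127 to 0.0763). One Clu-negative cell held 20.4% of the Id1 UMIs of its group. Endothelial-marker cells had 923 CPM of Id1, so its level is shared with vessels, whereas Aqp4 and Btc were at 3.53 and 2.65 CPM there. Ranbp3l was at 5.96 CPM from 3 UMIs in Clu-positive and 98.6 CPM in Clu-negative cells (0.0605, 0.0123 to 0.181), and Wnt9b, a collecting duct Wnt ligand, was at 0 and 35.0 CPM.

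The principal cell markers as a list were split. Of 17 without Aqp2, all measured, 1 was higher and 4 lower in Clu-positive cells, and the median log2 difference was 0.01. The counts varied with the cells used. Thinned to 2000 UMIs, 3 of 16 were higher and 1 lower, with a median of 0.43. With these markers at a sum of at least 30 per 10000, 0 of 17 were higher and 5 lower, with a median of -0.24. That limit is set on the same markers and removed 83 of 207 Clu-negative but 5 of 60 Clu-positive cells. It thus raises these markers mainly on the Clu-negative side, and no direction is read from it. Kcne1, a potassium channel subunit, was higher (282 and 129 CPM). Aqp4, Elf5, Fxyd4 and Npnt were lower. Fxyd4, the Na,K-ATPase modulator of the collecting duct, stood at 1445 CPM in Clu-positive and 3945 CPM in Clu-negative cells (0.366), and Npnt, a matrix protein, at 409 and 944 CPM (0.434). With each cell thinned to 2000 UMIs the ratios were 0.582 for Fxyd4 and 0.690 for Npnt, below 2-fold. The median Fxyd4 level per cell was 12.0 UMIs per 10000 in Clu-positive and 4.28 in Clu-negative cells. Thinning weights each cell alike, and 83 of 207 Clu-negative cells had a sum of these markers under 30 per 10000. Those 83 had a median of 2857 UMIs, against 5644.5 in the other 124, so depth and marker content cannot be told apart here. Aqp2, a gene of the rule, behaved likewise, with 2967 CPM in Clu-positive and 5962 CPM in Clu-negative cells, a ratio of 0.498 that thinning took to 0.791.

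The sodium channel and its regulators gave small ratios. Scnn1a was at 223 CPM in Clu-positive and 197 CPM in Clu-negative cells, Scnn1b at 374 and 265 CPM and Scnn1g at 217 and 131 CPM. These are the 3 subunits of ENaC, and none met the 2-fold limit, although Scnn1b reached 2.10-fold with equal weight per cell. Hsd11b2, the enzyme that keeps glucocorticoids off the mineralocorticoid receptor, was at 2325 CPM in Clu-positive and 1791 CPM in Clu-negative cells (1.30, 1.21 to 1.39). Aqp3 was at 656 and 946 CPM, and the vasopressin receptor gene Avpr2 at 205 and 274 CPM. Of 23 measured genes of aldosterone action and sodium reabsorption (20 after thinning, 3 higher and 2 lower), 2 were higher (Wnk1 and Usp2) and 3 lower (Fxyd4, Prss23 and the glucocorticoid receptor Nr3c1, with 5 and 70 UMIs). In cells with other principal cell markers at a sum of at least 30, 3 of 22 of this list were higher and 4 lower. Fxyd4 is on this list and also counts towards that sum.

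**Figure D2:**
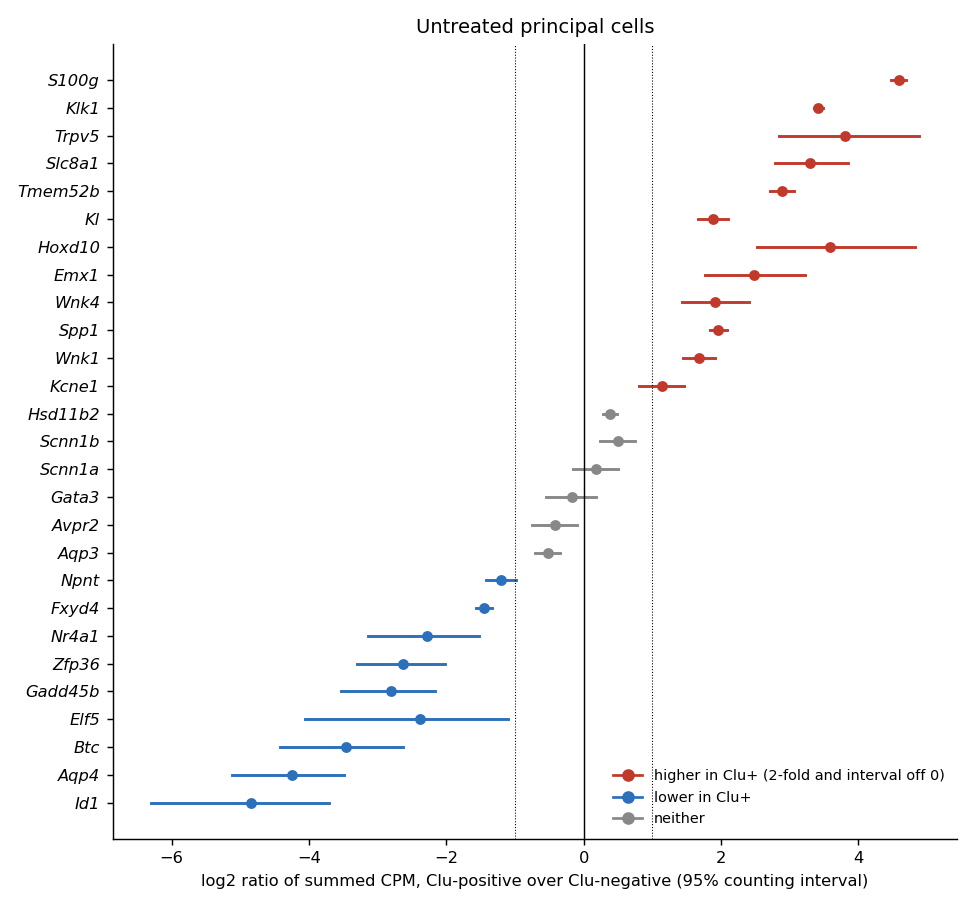
Log2 ratio of summed CPM, Clu-positive over Clu-negative principal cells of the untreated library, for 27 named genes, with no pseudocount, the exact 95% counting interval as a line and dotted lines at 2-fold. Connecting tubule genes lie on the right, from Kl at 3.69-fold to S100g at 24.0-fold, ENaC subunits and Hsd11b2 between the dotted lines, and Btc, Aqp4 and Id1 furthest left.

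Immediate-early genes, which are switched on within minutes by growth factors and by cell handling, were lower as a group. Of 20 measured, 14 were lower and 0 higher in Clu-positive cells, against 6.97% of all genes lower, and the median log2 difference was -1.42 beside 0.04 over all genes. Zfp36, which destabilises cytokine transcripts, stood at 45.7 CPM in Clu-positive and 282 CPM in Clu-negative cells (0.162, 0.102 to 0.247). The stress gene Gadd45b was at 39.7 and 279 CPM, the orphan receptor gene Nr4a1 at 29.8 and 145 CPM, and Klf2 at 0 and 47.9 CPM. Endothelial-marker cells had 1570 CPM of Klf2. After thinning Klf2 was read in 8.70% of Clu-negative and 9.74% of the Slc34a1 cells. Egr1 was at 702 CPM in Clu-positive and 1489 CPM in Clu-negative cells (0.471), and Junb at 397 and 1278 CPM (0.311). With each cell thinned to 2000 UMIs 8 of 16 measured were lower. Thinning also cut the number of lower genes over all measured ones, as given at the end. The Calb1-rich cells described below had 45.5 CPM of Zfp36, 49.2 CPM of Gadd45b and 376 CPM of Junb. Whether digestion or sorting shaped these levels was not tested.

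Injury genes gave no single direction. Of 22 measured, 4 were higher in Clu-positive cells (Spp1, Wfdc2, Krt18 and Krt19) and 4 lower (Anxa1, Anxa2, S100a6 and Gdf15). After thinning 3 of 18 were higher and 1 lower, whereas in cells with other principal cell markers at a sum of at least 30, 2 of 21 were higher and 5 lower. Spp1, osteopontin, was at 2711 CPM in Clu-positive and 697 CPM in Clu-negative cells (3.89, 3.58 to 4.23), and the Calb1-rich cells had 3348 CPM. Wfdc2, a secreted protease-inhibitor-like protein, was at 2236 and 909 CPM. Gdf15, a stress-induced cytokine, was at 109 CPM in Clu-positive and 371 CPM in Clu-negative cells.

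Stress lists that might be thought of beside a chaperone are set here against the shares over all genes, 3.89% higher and 6.97% lower. With so few members, counts near those shares are no result about the lists. Of 20 measured genes of endoplasmic reticulum stress and secretory chaperones 0 differed, and of 15 heat shock chaperones 1 was lower (Dnajb1, at 27.8 and 87.8 CPM). Of 21 actin and cytoskeleton genes 0 differed (1 higher and 1 lower after thinning). Of 38 nuclear oxidative phosphorylation genes 0 differed by the rule, but 37 had a log2 difference above 0, against 3517 of 6610 genes in all. Their median log2 difference was 0.21. Of the clusterin receptors 2 were measured and neither differed: Lrp2, megalin, was at 177 CPM in Clu-positive and 353 CPM in Clu-negative cells, and Vldlr at 13.9 and 27.1 CPM. Of 13 interferon and class I genes 1 was higher and 2 lower. Ifitm3, a membrane protein that restricts viral entry, was at 7.95 CPM in Clu-positive and 62.1 CPM in Clu-negative cells (0.128, 0.0341 to 0.340), and the transcription factor gene Irf1 at 25.8 and 111 CPM (0.232, 0.121 to 0.408). Ifit3 was the higher one, with all of its 26 UMIs in Clu-positive cells in 1 cell.

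The summed levels of 4 genes given here changed in steps with Clu, the gene that made the groups. In the bins of 0, above 0 to 5, 5 to 20 and at least 20 Clu UMIs per 10000, S100g stood at 554, 3132, 12632 and 14576 CPM. Slc8a1 stood at 27.9, 87.9, 198 and 425 CPM, and Tmem52b at 263, 624, 1722 and 2375 CPM. Aqp4 ran the other way, at 528, 226, 38.9 and 5.91 CPM. The sums of the middle cells, which neither group uses, lay between those of the groups for each of these 4 genes. For S100g 1 middle cell held 37.2% of the UMIs, the median middle cell had 4.09 per 10000 beside 3.50 in Clu-negative cells, and 31 of 49 were under 10. For Aqp4 1 middle cell held 39.7%. Within the Clu-positive cells Klk1 was at 12237 CPM under 20 and 26871 CPM at 20 or more.

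**Figure D3:**
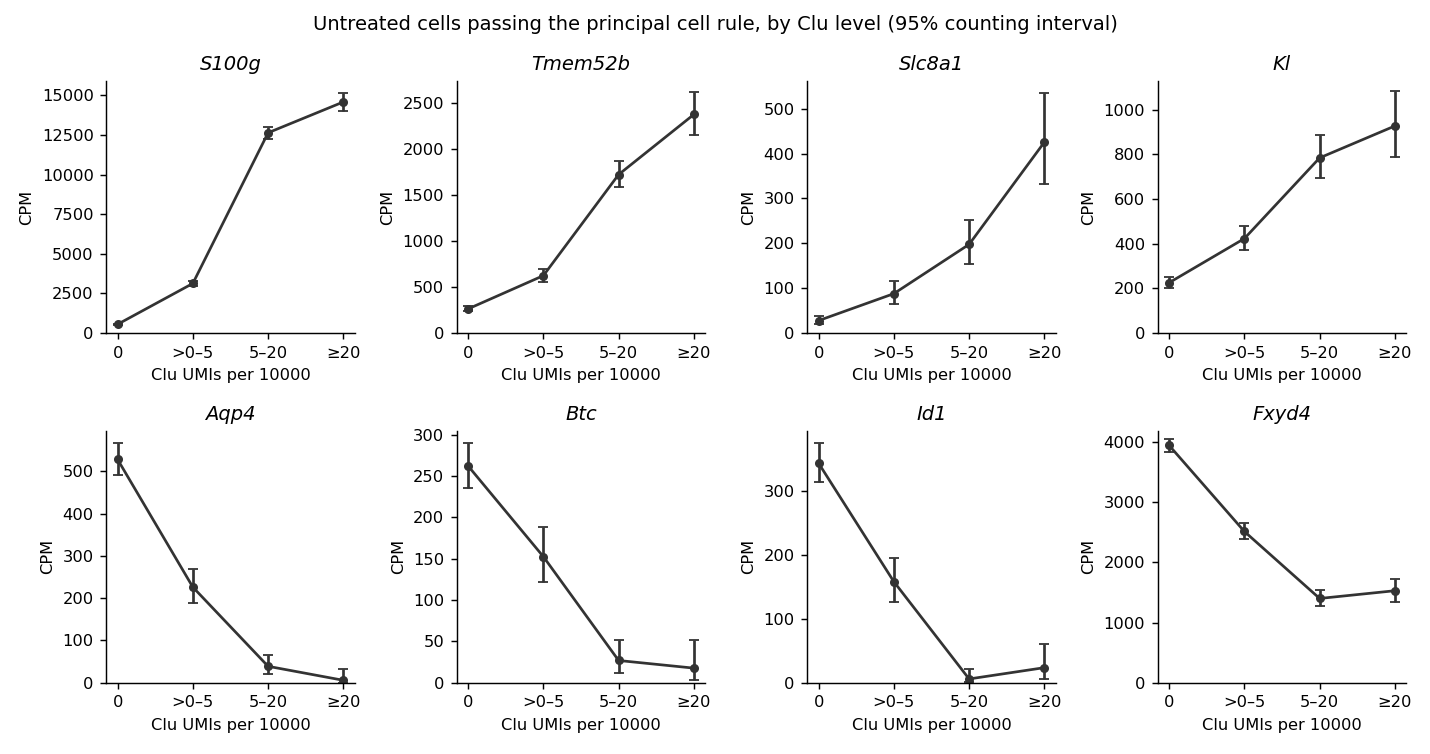
Summed CPM of 8 genes in untreated cells passing the principal cell rule, in 4 bins of Clu UMIs per 10000 (207, 49, 37 and 23 cells from low to high), with exact 95% counting intervals. S100g, Tmem52b, Slc8a1 and Kl increase over the bins, while Aqp4 and Btc decrease and Id1 and Fxyd4 are low in both Clu-positive bins.

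The principal cell markers were spread differently over the cells of the 2 groups. In sum the 17 markers other than Aqp2 were at 9208 CPM in Clu-positive and 12237 CPM in Clu-negative cells. Over the 17 other principal cell markers, a median of 13 was detected in Clu-positive and 9 in Clu-negative cells. Their sum was under 30 UMIs per 10000 in 5 of 60 Clu-positive cells (8.33%) and in 83 of 207 Clu-negative cells (40.1%), beside 96.2% of the Slc34a1 cells. The proximal sum exceeded the principal sum in 38 of 60 Clu-positive (63.3%) and 153 of 207 Clu-negative cells (73.9%). The 83 Clu-negative cells under 30 passed on Aqp2 while carrying little else of a principal cell, so the Clu-negative group is better called Aqp2-bearing cells without Clu. The Clu-positive group was rich in connecting tubule markers. The 9 distal convoluted and connecting tubule markers summed to 31801 CPM there, 36326 CPM in the Calb1-rich cells described below and 2562 CPM in Clu-negative cells. Calb1 was read in 52 of these 60 cells, and 38 had at least 50 S100g UMIs per 10000. For both groups the name principal cell therefore stands for the rule, not for a settled cell type. Proximal tubule markers summed to 11142 CPM in Clu-positive and 22520 CPM in Clu-negative cells, and 11 of 17 were lower, among them the phosphate transporter Slc34a1 (457 and 1114 CPM) and Miox (250 and 611 CPM).

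Blood-derived, endothelial and stromal markers were low in both groups, and their sums were lower in Clu-positive cells. The 13 blood-derived markers summed to 39.7 CPM in Clu-positive and 491 CPM in Clu-negative cells, with 9 of them, Lyz2 and Tyrobp included, at 0 in Clu-positive cells. All 85 S100a9 UMIs of the Clu-negative cells lay in 1 cell, and single cells held 78.7% of their Lyz2 and 58.9% of their Cd74 UMIs. Cd74 was read in 13.3% of Clu-positive and 3.86% of Clu-negative cells, although its sums were 15.9 and 169 CPM. The 12 endothelial markers summed to 23.8 and 279 CPM, with 5 at 0 in Clu-positive cells, and the 11 stromal markers to 31.8 and 104 CPM. Intercalated cell markers, of the acid-base cells that neighbour principal cells, summed to 1600 CPM in Clu-positive and 1811 CPM in Clu-negative cells, with 1 of 14 measured lower. The part of these cell types and of depth in the differences was not tested beyond the restricted and thinned values given.

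Restricting both groups to cells with a sum of at least 30 left 55 Clu-positive and 124 Clu-negative cells. The connecting tubule and Aqp4 differences were as large there, with S100g 26.5-fold and Slc8a1 9.81-fold higher and Aqp4 at a ratio of 0.0437. Aqp4 counts towards that sum, so its ratio there is not independent of the limit. Of 20 measured immediate-early genes 15 were lower. Of 17 proximal markers, 15 of which were lower after thinning to 2000 UMIs, 1 was lower here, with Slc34a1 at a ratio of 0.694. Over all genes the counts there stayed within 1.5 times of 255 higher and 460 lower, and their share of the genes measured there is not given. This restriction was chosen after the data were seen. Of the genes that differed, 38 of 255 higher and 63 of 460 lower ones met the rule in these cells, in cells of 3000 to 8000 UMIs and with every cell thinned to 2000 UMIs alike. Among the 38 were S100g, Klk1, Slc8a1, Kl, Tmem52b, Wnk1, Wnk4, Vdr, Spp1, Wfdc2 and Emx1, and among the 63 Aqp4, Btc, Id1, Ranbp3l, Zfp36, Gadd45b, Nr4a1 and Gdf15. The 63 also hold S100a9, all of whose Clu-negative UMIs lay in 1 cell. These settings share cells, so a gene that met the rule in all of them can still rest on 1 cell.

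**Figure D4:**
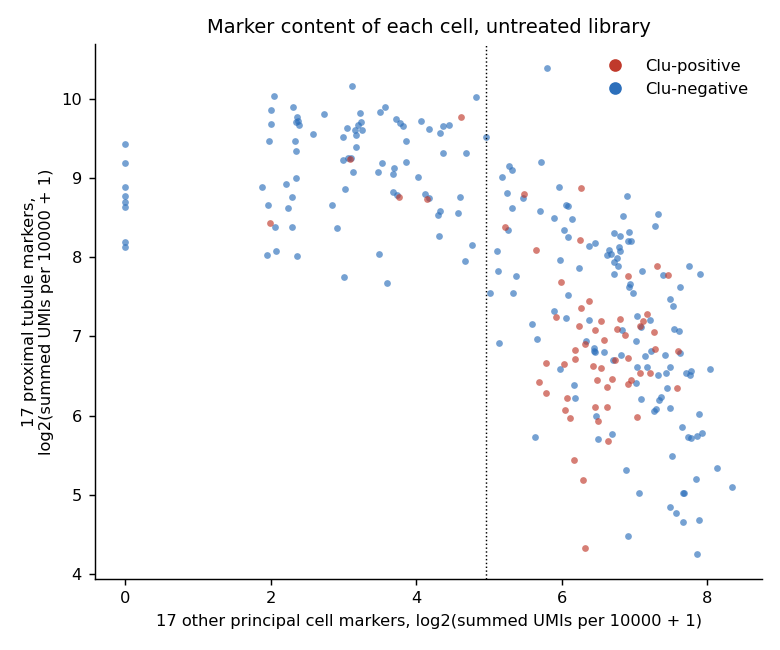
Sum of 17 principal cell markers without Aqp2 (horizontal) against the sum of 17 proximal tubule markers (vertical), both as log2(UMIs per 10000 + 1), for 60 Clu-positive and 207 Clu-negative cells of the untreated library, 1 point a cell. The dotted line is a principal sum of 30, below which lie 5 Clu-positive and 83 Clu-negative cells.

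Several connecting tubule calls ended under a stricter limit on Calb1. Calb1 under 10 per 10000 admits cells with some Calb1, and demanding 0 UMIs of Calb1 and Slc12a1 left 4 Clu-positive and 59 Clu-negative cells. In those, S100g was at a ratio of 1.29 and Klk1 at 1.98 and neither was called, and Slc8a1 had no UMI in Clu-positive cells, while Tmem52b was 12.6-fold higher and Aqp4 lower at a ratio of 0.168. A limit of under 10 S100g UMIs per 10000 fixes S100g itself, so only other genes are read in the 15 Clu-positive and 167 Clu-negative cells it left. There Kl fell short of the limit at 1.91-fold. Slc8a1 (102 and 14.3 CPM, 7.11-fold) and Tmem52b (1119 and 200 CPM, 5.59-fold) were still higher and Aqp4 (74.0 and 585 CPM, 0.127) and Btc (27.8 and 289 CPM, 0.0959) still lower. Wnk1 (0.576) and Hoxa9 (0.862) no longer met the limit in that subset.

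**Figure D5:**
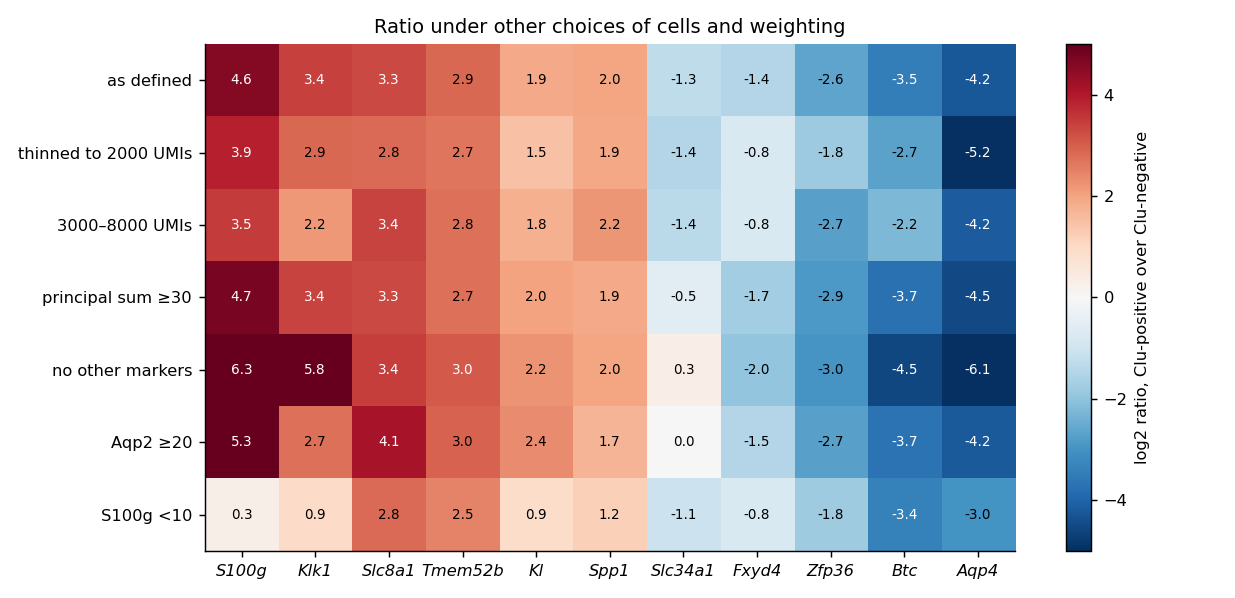
Log2 ratio of Clu-positive over Clu-negative cells with no pseudocount, for 11 genes (columns) as defined and under 6 other choices of cells or weighting (rows), red for higher and blue for lower in Clu-positive cells. Tmem52b and Slc8a1 stay red and Aqp4 and Btc blue in each row shown, whereas Slc34a1 is near 0 in the rows with Aqp2 of at least 20 and without cells carrying other markers, and the value of S100g in the lowest row is set by the limit on it.

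Cells with more Calb1 were the nearest comparison. The 378 cells that had Aqp2 but at least 10 Calb1 UMIs per 10000 had a median depth of 7982.5 UMIs, and 182 of them (48.1%, 43.0 to 53.3%) met the Clu-positive limit, against 19.0% of the cells passing the principal cell rule. With the other principal cell markers at a sum of at least 30, a limit added after the data were seen, the shares were 176 of 366 (48.1%, 42.9 to 53.3%) and 55 of 215 (25.6%, 19.9 to 32.0%). By the same limit 4.33% of 4252 Slc34a1 cells and 8.61% of 151 endothelial-marker cells were Clu-positive, at median depths of 4082 and 4711 UMIs. Side by side, S100g was at 13286 CPM in Clu-positive principal and 19204 CPM in Calb1-rich cells, Tmem52b at 1942 and 2017 CPM, Aqp4 at 27.8 and 33.9 CPM and Fxyd4 at 1445 and 1315 CPM. Slc8a1 was at 274 CPM in Clu-positive principal and 466 CPM in Calb1-rich cells, Kl at 833 and 1393 CPM and Wnk1 at 670 and 1238 CPM.

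Within the Calb1-rich cells the split by Clu showed fewer differences. Between 182 Clu-positive and 106 Clu-negative cells, of 6319 measured genes 51 (0.807%) were higher and 99 (1.57%) lower. Of the 255 genes higher with Clu in principal cells, 219 were measured here, of which 9 were higher and 1 lower. Of the 460 lower ones, 272 were measured, of which 28 were lower and 4 higher. Klk1 was higher again (19368 and 7824 CPM, 2.48-fold), and Aqp4 (18.0 and 85.8 CPM), Id1 (9.02 and 36.8 CPM) and Btc (29.5 and 69.8 CPM) were lower again. Of the stromal markers 4 of 4 measured were lower too, at a sum of 20.4 CPM in Clu-positive and 243 CPM in Clu-negative Calb1-rich cells. S100g (22129 and 14634 CPM), Slc8a1 (533 and 403 CPM) and Tmem52b (2375 and 1533 CPM) did not reach 2-fold. Whether the difference between these 2 comparisons exceeds counting error was not tested.

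After IRI the same split could not be made. By the same rule 304 of 304 cells were Clu-positive at day 2, where a count of 0 allows up to 0.987% Clu-negative cells, 16 of 17 at day 7 and 43 of 64 at day 30, with 5 Clu-negative at day 30. Depth was greater than in the untreated library, with medians of 13299, 23285 and 8692.5 UMIs against 4821.5 over all 316 untreated cells that passed. In the levels, the day 2 cells had a median of 116 Clu UMIs per 10000, against 15.2 in the untreated Clu-positive cells.

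Looser splits were added after the data were seen. In the untreated library 60 cells at 5 Clu UMIs per 10000 or more were set against all 256 below it, and of 6642 measured genes 207 (3.12%) were higher and 422 (6.35%) lower. At day 30, 43 cells were set against 21 by the same limit, and of 5374 measured genes 131 (2.44%) were higher and 90 (1.67%) lower. Of the stromal markers 5 of 5 measured were higher, and of 11 blood-derived ones 3 were higher and 1 lower. S100g (139 and 23.8 CPM, 65 and 5 UMIs), Trpv5 (114 and 14.3 CPM, 53 and 3 UMIs) and Kl (264 and 124 CPM) were higher and Btc (55.8 and 114 CPM) lower, while Aqp4 was at 266 and 443 CPM and Id1 at 94.4 and 133 CPM, short of 2-fold. Klk1 had 8 and 2 UMIs and was not measured. At day 2, 152 cells above the median of Clu were set against 152 at or below it, and of 6509 measured genes 33 (0.507%) were higher and 215 (3.30%) lower. Of the blood-derived markers 9 of 12 measured were lower, of the stromal ones 5 of 5 and of the urothelial ones 3 of 3. The part of these cell types in the day 2 and day 30 values was not tested. Klk1 (2162 and 1025 CPM) was higher there, S100g was at 2451 and 3437 CPM and Aqp4 at 349 and 180 CPM, short of 2-fold in opposite directions to the untreated cells.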

How the data were processed

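Cells were captured with the 10x Genomics 3ʹ v3.1 kit after enzymatic digestion and sorting for GFP, per the labels' protocols. The authors deposited raw UMI counts per gene and barcode, with no normalization. Cell Ranger 7.0.1 and mm10 are named in the submitters' processing notes, whereas the matrix headers give software version 3.0.1. How barcodes were kept is not stated.

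UMIs were summed over the cells of each group and divided by the summed total (CPM), using Python 3.11.15, numpy 2.4.6, scipy 1.17.1 and pandas 2.3.3. Ratios have exact conditional Poisson intervals, shares exact Clopper-Pearson intervals, all at 95%. Depths are in the report. Log2 differences of lists use CPM plus 10. The calling rule was checked on simulated summed counts with Poisson error only, so the check does not cover spread between cells. Doublets were not called or removed. Between 4 and 20 barcodes were shared by 2 libraries, 0 among cells passing the principal cell rule. Symbols given to more than 1 row carry their identifier, and 5 of 545 list genes were not matched. Positions are from GENCODE vM21.

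Named genes were the rule's genes, the 15 highest and 15 lowest by log2 difference, up to 4 of each of 31 lists, all principal cell markers and clusterin receptors, and genes of opposite direction after IRI. Named after their values were seen were Kl, Wnk4, Vdr, Cav1, Slc12a3, Pvalb and Hoxa9, and the differing members of lists whose counts are given, such as Hoxd8, Hoxd9, Hoxb9, Tfap2b, Usp2, Anxa2, Krt18, Krt19, Junb, Egr1 and Tyrobp. The members and lists were chosen with earlier results of these data known. Alternatives covered thresholds, weighting, scaling, depth, mitochondrial limits, marker limits and other-cell markers.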

Additional observations from a re-analysis of the deposited data

Results flagged for a closer look

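Genes called in opposite directions with Clu in the untreated and an IRI library numbered 20, of which the 10 with the widest gap are given. The difference between libraries was not tested.

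At day 30, in cells at 5 Clu UMIs per 10000 or more against those below it, 8 genes were higher that were lower in the same split of untreated cells. The log2 differences at day 30 were 3.01 for Hmx2, 2.44 for Sparc, 2.40 for Cyp2j13, 2.01 for S100a9, 1.91 for Ptprb, 1.44 for Flt1, 1.27 for Tm4sf1 and 1.07 for Apoe. Flt1 and S100a9 are markers of endothelium and of blood cells, and Sparc and Ptprb are well known from vessels. In the untreated cells all of them stood at or under 17.9 CPM in Clu-positive cells. The day 30 cells behind S100a9 gave 23 UMIs in the cells with more Clu and 1 in the others, and Hmx2 gave 33 and 0. The part of single cells in these sums was not tested.

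At day 2, in cells above the median of Clu against those at or below it, Cpne8 was higher (log2 difference 0.79) and Gsta4, a glutathione transferase, lower (-0.84). In untreated cells Cpne8 was lower (9.94 CPM in Clu-positive and 61.4 CPM in Clu-negative cells) and Gsta4 higher (139 and 30.7 CPM).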

How the results depend on the processing

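No paired analysis was possible because the groups are cells of 1 library. Under 22 alternatives for the gene counts, 4 of them chosen after the data were seen, the counts of 255 genes higher and 460 lower in Clu-positive cells moved by over 1.5 times as follows. A 1.5-fold limit gave 493 higher, a 3-fold limit 79 higher and 231 lower, and at least 50 CPM and 50 UMIs 103 higher and 199 lower. Thinning each cell to 2000 UMIs gave 228 lower, 149 of them shared. Demanding 0 UMIs of Calb1 and Slc12a1 gave 111 higher and 37 lower in 4 Clu-positive and 59 Clu-negative cells, and leaving out cells with markers of other cell types gave 130 higher and 297 lower in 33 and 36 cells. With S100g below 10 per 10000 the lower genes numbered 222, and 188 with other principal cell markers of at least 30 as well. The other counts stayed within 1.5 times. Of 1833 values of named genes that differed, 55 changed sign and 340 others moved beyond the counting interval. Fewer cells and UMIs under the stricter choices limit these values, and the cause of each change was not tested. The ratio of S100g ranged from 1.29 to 80.1 over the alternatives that set no limit on S100g itself, while Tmem52b (5.31 to 12.6) stayed higher and Aqp4 (0.0112 to 0.168) lower in each of them. The log2 differences that changed sign follow. In cells with 3000 to 8000 UMIs they were Psca 0.153, Ifit3 -1.21. With Aqp2 of at least 20 per 10000 they were Cd74 1.23, Slc34a1 0.0274, Acsm2 0.0386, Rgs5 0.227, Acta2 0.209, Gpx3 0.015, Sparc 0.378. With 0 UMIs of Calb1 and Slc12a1 they were Slc8a1 -1.78, Trpv5 -0.936, Slc2a9 -0.384, Atp4a -1.65, Scn4b -0.384, Spp1 -1.27, Socs2 -0.936, Elf5 0.503, Acsm2 0.138, Ly6c1 0.998, Anxa1 1.05, Nr4a1 0.0662, Ifit3 -1.5, Gpx3 0.202, Kl -0.81, Vdr -2.4. Without cells carrying other markers they were Cd74 0.16, Hmx2 0.0804, Slc34a1 0.306, Miox 0.0162, Psca 0.711, Rgs5 0.811, Ifit3 -0.683, Gpx3 0.166, Cyp2j13 0.642, Sparc 0.43, Tm4sf1 0.811. With S100g below 10 per 10000 they were Scn4b -0.399, Hoxa9 -0.143, Sostdc1 -0.577, Wnk1 -0.739, Ifit3 -1.62. With other principal cell markers of at least 30 they were Cd74 0.81, Rgs5 0.256, Acta2 0.0909, Sparc 0.0241. With both of these limits they were Scn4b -0.471, Hoxa9 -0.0647, Cd74 1.71, Sostdc1 -0.615, Acta2 0.154, Wnk1 -0.493, Ifit3 -1.69, Cyp2j13 0.438. Without cells at 20 or more of blood, vessel and stroma markers they were Cd74 0.917, Rgs5 0.0272.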
